A study of Rattus norvegicus with 12 samples.

Results

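The enzymes described here remove superoxide and peroxides, and they were chosen by gene name: every probe set whose only gene symbol in the array's annotation was Sod1, Sod2, Cat, Gpx1, Gpx4, Prdx1, Prdx2, Prdx5 or Prdx6. Of the 9 listed genes, 8 had such a probe set, and these 8 genes sat on 9 probe sets among the 14217 genes and 20826 probe sets with 1 symbol. The probe set annotated to Prdx1 carried a further symbol, so Prdx1 was not counted. Gpx4 had 2 probe sets, and the brighter one stands for it.

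Superoxide dismutases turn superoxide, which leaks from mitochondria and is made by oxidases, into hydrogen peroxide. Catalase in peroxisomes, the selenium-containing glutathione peroxidases and the thiol-based peroxiredoxins then reduce hydrogen peroxide, and some of them also reduce lipid peroxides. Neurons, the glia that form myelin, and axons all rely on these enzymes, and acrylamide, a soft electrophile that binds thiols and damages long axons, draws on the glutathione that supports part of this system.

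Male Wistar rats received acrylamide by gavage at 30 mg/kg daily, or the vehicle, called saline in some labels and solvent in another. The 6 groups of 2 arrays were acrylamide and saline sciatic nerve, acrylamide and saline spinal cord, and acrylamide and saline cerebellum, and each array held tissue pooled from 2 rats. The sample labels give 25 days as the age at the start, whereas the series text gives 3 weeks. One text states dosing over 21 days and another a collection 21 days after treatment, so the interval between the last dose and collection is not settled, and nothing states that nerve, cord and cerebellum of 1 animal were matched.

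Values are signals in arbitrary units, 1 per probe set and array, and array medians ran from 162 to 199. Replicates of a group correlated at 0.9658 to 0.9833 over all probe sets. Tissue labels fitted their markers: the motor neuron list (Chat, Isl1, Slc5a7) summed to 45.0 to 91.7 in nerve, 2179 to 2337 in cord and 34.9 to 103 in cerebellum, and the Purkinje list (Pcp2, Calb1, Car8) to 439 to 5828, 770.2 to 1080.04 and 33067 to 35948. Some arrays carried transcript typical of another tissue, and its source was not tested. Pcp2 stood at 2294 and 1597 on nerve acrylamide and nerve saline replicate 1, against 148 and 162 on the replicates numbered 2. The muscle gene Acta1 stood at 13974 on cord saline replicate 1, and at 7532 on nerve acrylamide replicate 2. Fat cell markers (Adipoq, Fabp4, Cidec, Plin1, Lep) summed to 20483 on nerve saline replicate 1 and to 3401 to 7303 on the other nerve arrays. Values without the nerve arrays numbered 1, or without the 2 arrays with muscle transcript, are given for the 8 enzymes alone. They stand beside the results that they move or in the section on processing at the end.

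Across the 3 tissues, the cerebellum had the lowest signal of Cat, Gpx1, Prdx6 and Sod1, and the nerve had the lowest signal of Sod2, Prdx2 and Prdx5. The spinal cord exceeded the cerebellum for all 8 enzymes, by 1.15-fold (Prdx2) to 2.81-fold (Cat). The nerve was lower than the cord for 6 of them, with Sod2 farthest apart, while Cat and Gpx1 were not told apart between nerve and cord. Acrylamide moved no enzyme past the threshold in any tissue, and the farthest difference was Cat in the spinal cord, 1.27-fold higher in treated rats.

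**Figure D1:**
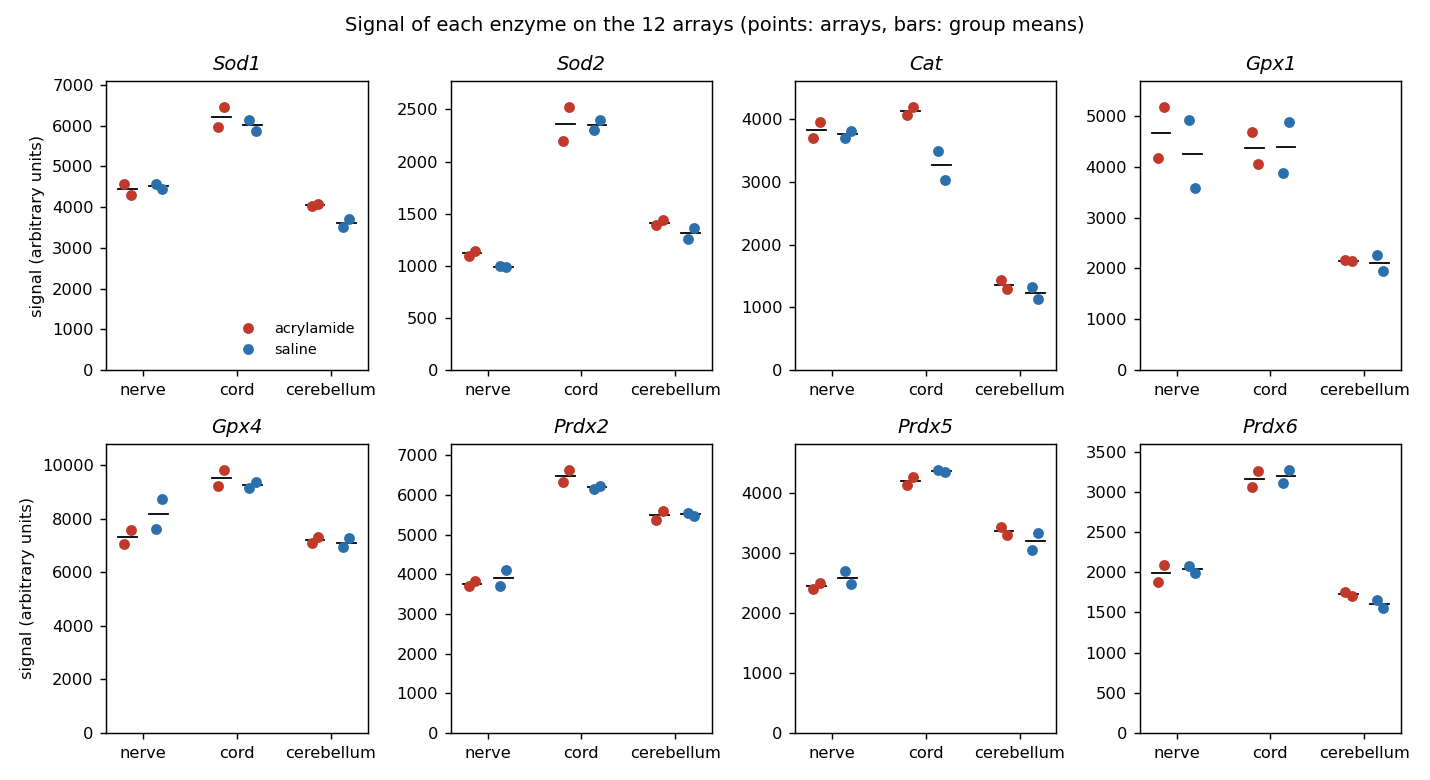
Signal in arbitrary units (vertical axes, from 0) of the 8 enzymes on the 12 arrays, with acrylamide in red left of saline in blue for nerve, cord and cerebellum; points are arrays and bars are group means. Cat lay between 3026 and 4183 in cord and between 1135 and 1433 in cerebellum, and Sod2 between 986 and 1144 in nerve and between 2195 and 2520 in cord.

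Differences between tissues averaged over both treatments, 4 arrays a tissue, were tested with limma on log2(signal + 16), and a probe set was called at a Benjamini-Hochberg adjusted p under 0.05. Cord minus cerebellum called all 8 enzymes, each higher in cord, where 66.8% of the 20483 probe sets tested were called and 31.9% were called higher. Nerve minus cord called 6 of 8, each lower in nerve, where 70.4% of all probe sets were called, 36.3% higher and 34.1% lower. Nerve minus cerebellum called 7 of 8, with 4 higher and 3 lower, where 78.7% were called, 34.6% higher and 44% lower. Most genes on the array thus differed between these tissues, and the median differences of the 8 enzymes, 0.73 for cord minus cerebellum, -0.55 for nerve minus cord and 0.17 for nerve minus cerebellum, stood beside -0.056, 0.04 and -0.14 over all probe sets tested. In bulk tissue, fewer cells of a type and less RNA per cell cannot be told apart. The cell makeup differed widely: the Schwann cell markers on the array (3 of 5: 1 symbol each) summed to 52866 to 68305 in nerve, 9362 to 19275 in cord and 93.9 to 123 in cerebellum, and the oligodendrocyte markers (4 of 5) to 3254 to 7389, 51714 to 55706 and 18842 to 21986. The part of these cells in the enzyme differences was not tested.

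Sod1, the copper and zinc dismutase of the cytosol and of the space between the mitochondrial membranes, gave 4577 and 4303 in acrylamide nerve and 4577 and 4454 in saline nerve. In cord its signal was 5968 and 6449 with acrylamide and 6146 and 5879.5 with saline, and in cerebellum 4039.9 and 4076 with acrylamide and 3516 and 3713 with saline. The 3 tissues formed separate ranges, with cord above nerve above cerebellum. Sod1 was 1.36-fold lower in nerve than in cord (log2 difference -0.45 ± 0.05 SE, adjusted p = 2.72e-05) and 1.59-fold higher in cord than in cerebellum (0.67 ± 0.05, adjusted p = 2.97e-06). Nerve exceeded cerebellum by 1.17-fold (0.22 ± 0.05, adjusted p = 0.00177), a call that quantile normalization ended (0.081, adjusted p = 0.2).

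Sod2, the manganese dismutase of the mitochondrial matrix, had another order. It gave 1094 and 1144 in acrylamide nerve and 995 and 986 in saline nerve, 2195 and 2520 in acrylamide cord and 2301 and 2395 in saline cord, and 1390.2 and 1441 in acrylamide cerebellum and 1255 and 1367 in saline cerebellum. Every nerve array lay below every cerebellar array, and every cerebellar array below every cord array. Sod2 was 2.21-fold lower in nerve than in cord (-1.15 ± 0.06, adjusted p = 4.73e-07) and 1.29-fold lower in nerve than in cerebellum (-0.37 ± 0.06, adjusted p = 0.000424). It was 1.72-fold higher in cord than in cerebellum (0.78 ± 0.06, adjusted p = 5.81e-06).

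Cat, the peroxisomal enzyme that splits hydrogen peroxide into water and oxygen, showed the widest tissue difference of the 8. It gave 3692 and 3944 in acrylamide nerve and 3695 and 3813 in saline nerve, 4058 and 4183 in acrylamide cord and 3490.0 and 3026 in saline cord, and 1433 and 1288 in acrylamide cerebellum and 1327 and 1135 in saline cerebellum. Nerve and cord arrays overlapped, and all 8 of them exceeded every cerebellar array. Cat was 2.91-fold higher in nerve than in cerebellum (1.54 ± 0.07, adjusted p = 9.2e-08) and 2.81-fold higher in cord than in cerebellum (1.49 ± 0.07, adjusted p = 3.59e-07). Nerve minus cord was 0.05 ± 0.07, with a 95% interval from -0.11 to 0.21 (adjusted p = 0.565). The window of 300 bases around the start of Cat is printed here because Cat had the widest tissue difference; it lies at chr3:110329477-110329776 on the minus strand of GRCr8, from 250 bases before the start to 50 after (RefSeq), with CCAAT, or ATTGG where the motif is on the other strand, in capitals.

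Cat promoter: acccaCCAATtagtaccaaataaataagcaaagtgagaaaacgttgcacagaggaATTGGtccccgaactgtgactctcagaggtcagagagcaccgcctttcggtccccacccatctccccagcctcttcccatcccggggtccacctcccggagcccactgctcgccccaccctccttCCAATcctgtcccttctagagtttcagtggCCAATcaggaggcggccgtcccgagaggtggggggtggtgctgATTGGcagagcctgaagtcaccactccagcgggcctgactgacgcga

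This window holds 5 copies of CCAAT, the box named after its letters, counted on both strands, at -245, -195, -70, -40 and 4 from the start. Of 33469 RefSeq windows of that length, 37.5% hold at least 1 copy and 0.218% hold at least as many as Cat. The motif is a description of the letters, and the windows were searched after the values were known.

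Gpx1, the cytosolic and mitochondrial glutathione peroxidase that reduces soluble peroxides, gave 4173 and 5167 in acrylamide nerve and 4908 and 3585 in saline nerve. Its cord signal was 4678 and 4058 with acrylamide and 3882 and 4883 with saline, and its cerebellar signal 2166 and 2139.7 with acrylamide and 2260 and 1945 with saline. Nerve and cord overlapped throughout, and both lay above all cerebellar arrays. Gpx1 was 2.07-fold higher in nerve than in cerebellum (1.05 ± 0.12, adjusted p = 3.4e-05) and 2.04-fold higher in cord than in cerebellum (1.03 ± 0.12, adjusted p = 7.27e-05). Nerve minus cord was 0.02 ± 0.12 (95% interval -0.26 to 0.30, adjusted p = 0.898). Replicates of Gpx1 spread more than those of the other 7 enzymes in nerve, where its mean was 4458 ± 719 (SD, n = 4).

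Gpx4, which reduces peroxidised phospholipids in membranes and so holds back ferroptosis, varied least widely in fold among nerve, cord and cerebellum. Its brighter probe set (1386871_at) gave 7042 and 7592 in acrylamide nerve and 7609 and 8718 in saline nerve, 9209 and 9815 in acrylamide cord and 9132 and 9382 in saline cord, and 7077 and 7302 in acrylamide cerebellum and 6927 and 7267 in saline cerebellum. All cord arrays exceeded all nerve and cerebellar arrays, whose ranges overlapped. Gpx4 was 1.22-fold lower in nerve than in cord (-0.28 ± 0.05, adjusted p = 0.00133), and median centring of the arrays (-0.14, adjusted p = 0.146) or the saline arrays alone (-0.18, adjusted p = 0.0674) ended that call. It was 1.31-fold higher in cord than in cerebellum (0.39 ± 0.055, adjusted p = 0.000196). Nerve minus cerebellum was 0.11 ± 0.05 (95% interval -0.012 to 0.24, adjusted p = 0.0877). That value stood at -0.08 after quantile normalization and at 0.28 (adjusted p = 0.00926) after median centring, and without nerve saline replicate 1 it was 0.16 (adjusted p = 0.0154). The call was also gained with the saline arrays alone (0.20, adjusted p = 0.044) and without both nerve arrays that carried cerebellar transcript (0.19, adjusted p = 0.00668).

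The dimmer Gpx4 probe set (1391529_at) passed the filter on low signals, a mean of 110 over a tissue's arrays on the log2 scale, in the cerebellum alone. Its mean signal was 59.2 ± 7.87 with acrylamide and 37.4 ± 30.7 with saline in nerve, 31.8 ± 9.67 and 61.7 ± 36.7 in cord, and 129.9 ± 26.0 and 139 ± 31.6 in cerebellum (SD, n = 2 each). All 4 cerebellar arrays lay above all nerve and cord arrays, where the probe set was under that filter. Contrasts with the cerebellum were still tested, and it was called lower in cord (-1.34 ± 0.32, adjusted p = 0.00453) and in nerve (-1.30 ± 0.32, adjusted p = 0.00405). The brighter probe set stood at 0.39 and 0.11 there, the opposite direction. The dimmer one entered those contrasts only through the tissue where it was high, so its calls carry no weight. Which probe set reflects Gpx4 was not tested.

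Among the peroxiredoxins, Prdx2, the cytosolic enzyme abundant in neurons, gave 3696 and 3818 in acrylamide nerve and 3693 and 4113 in saline nerve. In cord it gave 6321 and 6626 with acrylamide and 6144 and 6234 with saline, and in cerebellum 5364 and 5597 with acrylamide and 5544 and 5472 with saline. The 3 tissues did not overlap, and nerve was lowest. Prdx2 was 1.65-fold lower in nerve than in cord (-0.72 ± 0.05, adjusted p = 1.44e-06) and 1.43-fold lower in nerve than in cerebellum (-0.52 ± 0.05, adjusted p = 6.74e-06). The 1.15-fold higher signal in cord than in cerebellum (0.20 ± 0.05, adjusted p = 0.00445) was not called with the saline arrays alone (0.17, adjusted p = 0.0633).

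Prdx5, a peroxiredoxin found in mitochondria, peroxisomes and cytosol, gave 2396 and 2497 in acrylamide nerve and 2688 and 2475 in saline nerve, 4133 and 4263 in acrylamide cord and 4378 and 4345 in saline cord, and 3429.5 and 3298 in acrylamide cerebellum and 3047 and 3334 in saline cerebellum. It ran in the same order as Sod2 and Prdx2, with nerve below cerebellum below cord and no overlap. Prdx5 was 1.70-fold lower in nerve than in cord (-0.76 ± 0.05, adjusted p = 1.54e-06) and 1.30-fold lower in nerve than in cerebellum (-0.38 ± 0.05, adjusted p = 9.17e-05). It was 1.31-fold higher in cord than in cerebellum (0.38 ± 0.05, adjusted p = 0.00015). Over the 6 group means, Prdx5 correlated with Sod2 at r = 0.963 and with Prdx2 at 0.96, a description over means that share 3 tissues. The start windows of Sod2 and Prdx5 are printed as those with TGACNNNGC among the enzymes of that order, chosen after the search, and the window of Prdx2 holds none. Both are on the minus strand of GRCr8 from RefSeq, with Sod2 at chr1:50050119-50050418 and Prdx5 at chr1:213531978-213532277. Capitals mark TGACNNNGC, the core of the antioxidant response element, and GGGCGG, the GC box, each searched on both strands.

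Sod2 promoter: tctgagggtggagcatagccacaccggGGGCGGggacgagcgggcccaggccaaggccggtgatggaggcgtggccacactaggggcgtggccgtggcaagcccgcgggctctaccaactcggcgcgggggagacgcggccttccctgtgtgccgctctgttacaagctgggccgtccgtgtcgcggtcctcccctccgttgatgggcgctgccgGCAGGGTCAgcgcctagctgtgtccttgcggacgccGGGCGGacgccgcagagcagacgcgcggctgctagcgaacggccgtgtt

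Prdx5 promoter: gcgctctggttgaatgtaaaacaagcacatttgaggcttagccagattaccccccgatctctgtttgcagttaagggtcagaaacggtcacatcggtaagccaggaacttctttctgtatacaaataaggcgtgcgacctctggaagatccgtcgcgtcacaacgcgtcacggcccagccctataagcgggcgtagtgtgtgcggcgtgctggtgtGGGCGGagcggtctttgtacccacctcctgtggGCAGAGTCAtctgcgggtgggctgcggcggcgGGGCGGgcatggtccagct

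Each window holds 1 TGACNNNGC on the other strand and 2 copies of GGGCGG, and in neither do the marked motifs overlap. Among 33469 windows, TGACNNNGC occurs in 12.1% and GGGCGG in 33.1%. Windows were listed for 7 of the 8 enzymes, 9 in all, Prdx6 being without one; TGACNNNGC was in 2 of the 9 and GGGCGG in 8 of the 9. The 4 windows with CCAAT belong to 3 enzymes, Cat among them, and TATAAA, in 14.2% of all windows, is in that of Sod1.

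Prdx6, the 1-cysteine peroxiredoxin that also reduces phospholipid peroxides, gave 1875 and 2094 in acrylamide nerve and 2081 and 1995 in saline nerve. Its cord signal was 3056 and 3262 with acrylamide and 3112 and 3271 with saline, and its cerebellar signal 1748 and 1704 with acrylamide and 1657 and 1558 with saline. The tissues did not overlap, and cerebellum was lowest, as for Sod1. Prdx6 was 1.58-fold lower in nerve than in cord (-0.66 ± 0.06, adjusted p = 7.2e-06) and 1.20-fold higher in nerve than in cerebellum (0.27 ± 0.06, adjusted p = 0.00173). It was 1.90-fold higher in cord than in cerebellum (0.92 ± 0.06, adjusted p = 1.35e-06).

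**Figure D2:**
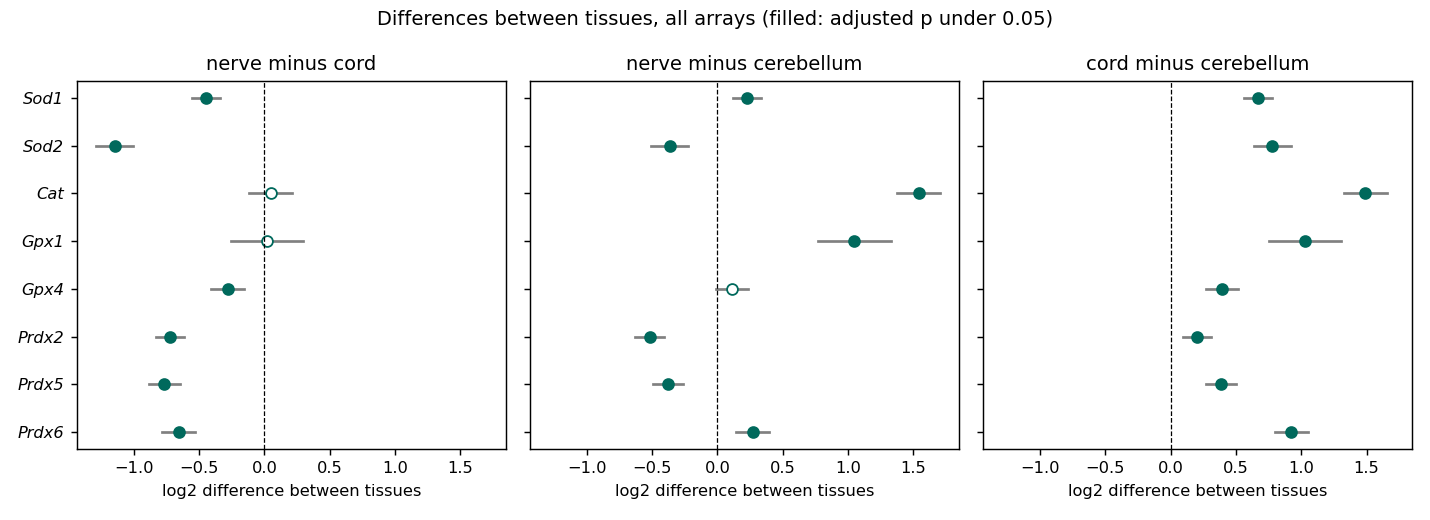
Log2 differences between tissues (horizontal axes) of the 8 enzymes with 95% intervals from limma, over 4 arrays a tissue; filled points passed an adjusted p of 0.05. All 8 lie right of 0 for cord minus cerebellum, 6 lie left of 0 and pass for nerve minus cord, and Cat and Gpx1 lie near 0 there.

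Called differences kept their direction under quantile normalization and under median centring of the arrays. Median centring raised the difference of all probe sets by a median of 0.143 for nerve minus cord and 0.168 for nerve minus cerebellum. Quantile normalization raised the last by 0.113. These medians do not bound the shift of a single enzyme. For nerve minus cerebellum, quantile normalization lowered Sod1 from 0.22 to 0.081 and Gpx4 from 0.11 to -0.08. Median centring raised that Gpx4 value to 0.28. Small differences between tissues thus depend on the scaling. For the results named above as gaining or losing a call, the adjusted p over 23 alternatives, the removals of arrays with foreign transcript not among them, ran from 8.46e-05 to 1 for Sod1 and from 0.00926 to 1 for Gpx4 in nerve minus cerebellum, from 3.66e-06 to 1 for Gpx4 in nerve minus cord, and from 0.00182 to 1 for Prdx2 in cord minus cerebellum, with the minimum of 1.5-fold at the upper end of each. Against a minimum of 1.5-fold, the calls left were Cat, Gpx1, Prdx6 and Sod2 for cord minus cerebellum (4), Sod2, Prdx2 and Prdx5 for nerve minus cord (3) and Cat and Gpx1 for nerve minus cerebellum (2), with 4640, 5872 and 8849 of all probe sets called on that basis.

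**Figure D3:**
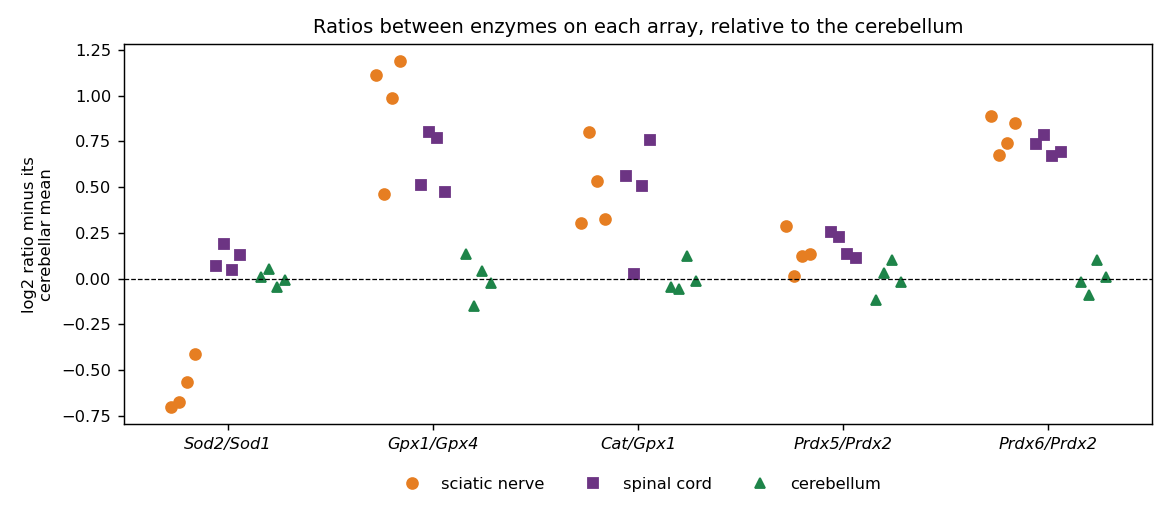
Log2 ratio of 2 enzymes on each array minus the cerebellar mean of that ratio (vertical axis), for nerve (circles), cord (squares) and cerebellum (triangles), 4 arrays each. The nerve arrays of Sod2/Sod1 lie from -0.70 to -0.42 and the cord arrays from 0.04 to 0.19.

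Ratios of signals within an array show that some related enzymes differed unequally between tissues, with no test made. The Sod2 to Sod1 ratio, on the log2 scale relative to its cerebellar mean, ran from -0.70 through a median of -0.62 to -0.42 in nerve and from 0.04 through 0.10 to 0.19 in cord. Nerve arrays all lay below those of cord and cerebellum for that pair. The Gpx1 to Gpx4 ratio was above its cerebellar mean on every nerve array (0.46, median 1.05, highest 1.19) and every cord array (0.47, median 0.64, highest 0.80). The Prdx6 to Prdx2 ratio ran from 0.67 to 0.89 in nerve and from 0.67 to 0.79 in cord, while Prdx5 to Prdx2 ran from 0.015 to 0.29 and from 0.11 to 0.26. Cat to Gpx1 reached from 0.30 to 0.80 in nerve and from 0.024 to 0.76 in cord. The cerebellar arrays ran from -0.12 to 0.10 for Prdx5 to Prdx2, overlapping the nerve arrays. They ran from -0.057 to 0.12 for Cat to Gpx1 and from -0.048 to 0.050 for Sod2 to Sod1, overlapping the cord arrays of each.

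**Figure D4:**
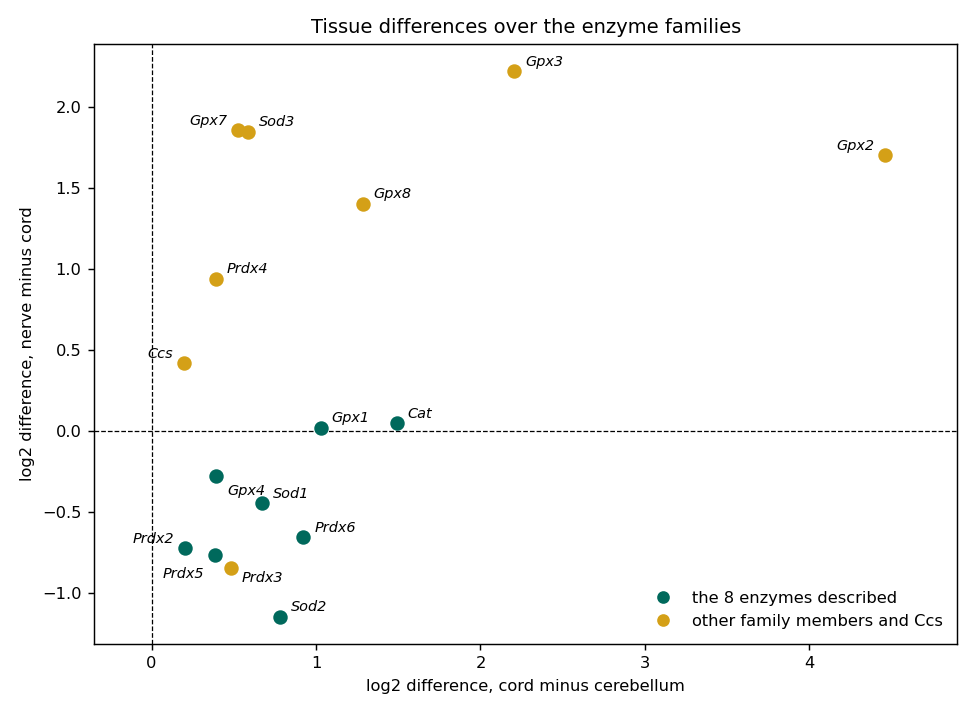
Log2 difference of cord minus cerebellum (horizontal axis) against nerve minus cord (vertical axis) for the 8 enzymes (green) and for 7 further genes of the same families and Ccs (yellow). Sod3, Gpx2, Gpx3, Gpx7 and Gpx8 lie at 1.40 or above on the vertical axis, Prdx3 at -0.85, and the 8 enzymes from -1.15 to 0.05.

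The other dismutases, glutathione peroxidases and peroxiredoxins formed, with Ccs, the copper chaperone of Sod1, a list of 10 genes, of which 9 were on the array with 1 symbol and 8 were tested between tissues. Of these 8, 7 were called higher and Prdx3 was called lower in nerve than in cord, with a median of 1.55, against -0.55 for the 8 enzymes above and 0.04 over all probe sets. In nerve minus cerebellum the same counts were 7 and 1, with a median of 2.41 against 0.17 for the 8 enzymes and -0.14 over all. Gpx2 is among the genes called higher there and in cord minus cerebellum, although it was under the filter on low signals in cerebellum. It entered those contrasts only through the tissue where it was high, so its direction there carries no weight. Sod3, the dismutase of the extracellular matrix, gave 2454 and 2740.4 in acrylamide nerve and 2289 and 2776 in saline nerve, and 724 and 670.5 in acrylamide cord and 739.9 and 663 in saline cord. Its groups did not overlap, and it was 3.60-fold higher in nerve (1.85 ± 0.09, adjusted p = 2.28e-07). Gpx7 (1.86 ± 0.11, adjusted p = 6.94e-07) and Gpx8 (1.40 ± 0.08, adjusted p = 7.83e-07), peroxidases of the endoplasmic reticulum, were also higher in nerve than in cord. Prdx3, the peroxiredoxin of the mitochondrial matrix, was 1.80-fold lower in nerve than in cord (-0.85 ± 0.08, adjusted p = 1.21e-05) and 1.28-fold lower in nerve than in cerebellum (-0.36 ± 0.08, adjusted p = 0.00221). In cord minus cerebellum the list had 7 called higher and 0 called lower, with Gpx8 at 1.28 ± 0.08 and Gpx3, the secreted plasma peroxidase, at 2.21 ± 0.31. The fibroblast markers (Col1a1, Col1a2, Dcn, Lum) summed to 69910.2 to 84207 in nerve, 13038 to 21608 in cord and 1685 to 2544 in cerebellum, and their part was not tested.

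The counts of the next lists stand beside 36.3% of all probe sets called higher and 34.1% called lower in nerve minus cord, and 31.9% and 34.9% in cord minus cerebellum. Of the thioredoxin and glutaredoxin system, which recycles peroxiredoxins, 18 genes were tested. In nerve minus cord 4 were called higher and 10 lower, and in cord minus cerebellum 11 higher and 3 lower. All 18 passed the filter on low signals in cord and in cerebellum, and 17 in nerve. A gene under it in nerve entered nerve minus cord only through cord, so its direction there carries no weight. Txn1, the cytosolic thioredoxin, was higher in nerve than in cord (0.88 ± 0.06, adjusted p = 2.07e-06), and Glrx2, the mitochondrial glutaredoxin, was lower (-1.13 ± 0.05, adjusted p = 2.34e-07). Txnip, which binds and inhibits thioredoxin, was 8.17-fold higher in nerve than in cerebellum (3.03 ± 0.06, adjusted p = 1.11e-09). Of 16 glutathione supply genes tested in nerve minus cord, 7 were called higher and 7 lower. All 16 passed the filter on low signals in nerve, but only 14 did in cord. Those under it in cord entered only through nerve, so their direction carries no weight. Slc7a11, the cystine importer, was 4.34-fold lower in nerve (-2.12 ± 0.18, adjusted p = 6.05e-06). Genes of superoxide and peroxide producing enzymes, 14 tested, were called higher in 7 cases and lower in 3 for nerve minus cord. Only 13 passed the filter in nerve, and 13 in cord. A gene under it in either tissue entered only through the other, so its direction carries no weight. Maob, a monoamine oxidase of the outer mitochondrial membrane, was 3.89-fold higher in nerve (1.96 ± 0.09, adjusted p = 1.98e-07). Of 11 genes for selenoprotein synthesis, on which Gpx1 and Gpx4 depend, 3 were called higher and 3 lower there, with Secisbp2l at 1.34 ± 0.09 (adjusted p = 1.55e-06) and Sephs2, which makes the selenium donor, at -1.05 ± 0.12 (adjusted p = 3.64e-05).

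For acrylamide minus saline, limma called 0 of the 8 enzymes in nerve, cord or cerebellum, in the average of the 3 tissues, and in the F test that the 3 differences are equal. The same test called 0.00553% of probe sets in nerve, 0% in cord, 0% in cerebellum, 0.0127% for the average and 0% in the F test. At an unadjusted p under 0.05 stood 0 of 8 in nerve (5.1% of all probe sets), 1 in cord (2.87%), 1 in cerebellum (2.71%), 1 for the average (5.49%) and 0 in the F test (2.33%). Acrylamide and saline arrays did not overlap for 2 enzymes in nerve (26.3% of all probe sets), 3 in cord (33.6%) and 3 in cerebellum (33.7%). Each p measures the spread between pools of 2 rats, not between rats.

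**Figure D5:**
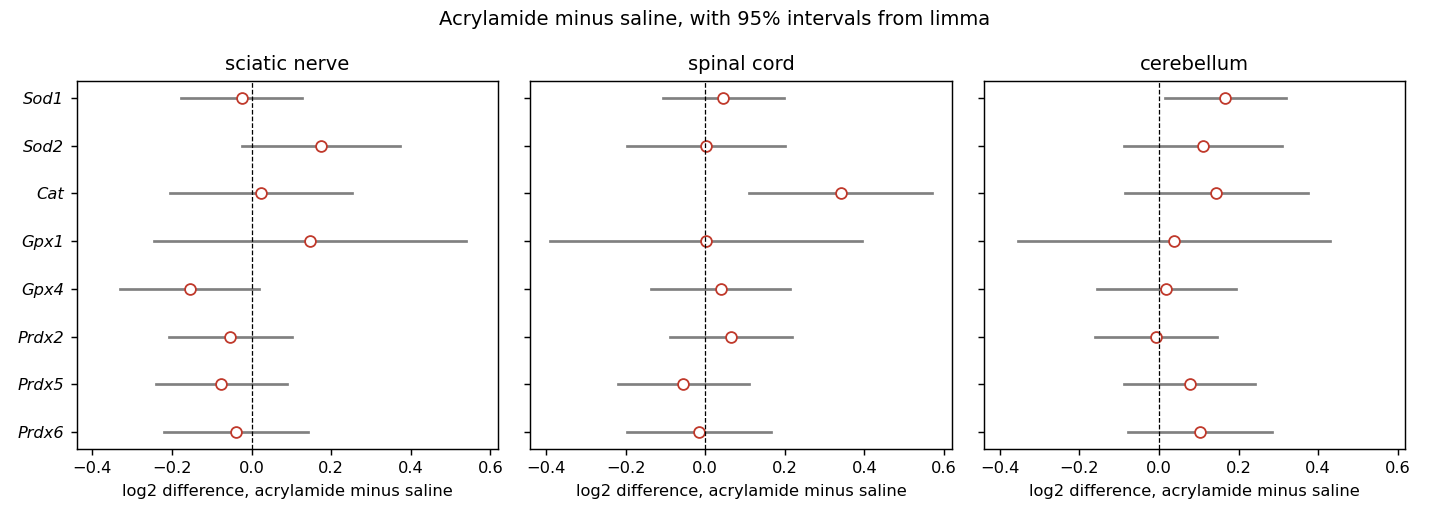
Log2 difference, acrylamide minus saline (horizontal axes), of the 8 enzymes with unadjusted 95% intervals from limma in nerve, cord and cerebellum; 2 arrays a group. The Cat interval in cord runs from 0.11 to 0.57, the Sod1 interval in cerebellum from 0.015 to 0.32, and the others include 0.

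Cat in the spinal cord averaged 4120 ± 88.5 with acrylamide and 3258 ± 328 with saline (SD, n = 2 each), and both treated arrays lay above both saline arrays, as listed above. The difference was 0.34 ± 0.10 on the log2 scale (1.27-fold, 95% interval 1.08 to 1.49, unadjusted p = 0.00837, adjusted p = 1, and 0.618 to 1 over 22 alternatives), and it ranged from 0.24 to 0.44 as each array was left out. Without cord saline replicate 1, the array with muscle transcript, it was 0.44, and without both nerve arrays numbered 1, which change only the shared spread, its adjusted p was 0.566. In cerebellum Cat stood at 0.14 ± 0.10 and in nerve at 0.02 ± 0.10, and the test of a difference between tissues gave an unadjusted p of 0.139 (adjusted p = 1). Averaged over the tissues, Cat was at 0.17 ± 0.06 (unadjusted p = 0.0177, adjusted p = 0.76). Beside Cat, the summed markers on acrylamide and saline cord arrays did not overlap for several cell types. They were higher with acrylamide for astrocytes (50876 and 50999.9 against 45408 and 44837) and for microglia and macrophages (4886 and 4672 against 3643 and 3519.6). They were lower for Schwann cells (12647 and 9362 against 15886 and 19275), fibroblasts (16245 and 13038 against 21608 and 19546), endothelium (860.3 and 852 against 893 and 1009) and skeletal muscle (318 and 316 against 29691 and 605). The dim sums of Purkinje, granule neuron and fat cell markers, at most 1082 on any cord array, did not overlap either. None of the 5 astrocyte, 6 microglia and macrophage, 3 Schwann cell or 4 fibroblast genes tested in cord was called. At an unadjusted p under 0.05, 3 of 3 Schwann cell and 3 of 4 fibroblast genes were lower, with medians of -0.62 and -0.58, and their part in the Cat value was not tested.

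Sod1 in cerebellum averaged 4058 ± 25.7 with acrylamide and 3615 ± 139 with saline, a difference of 0.17 ± 0.07 (1.12-fold, unadjusted p = 0.0347, adjusted p = 1). Its groups did not overlap there, and they overlapped in cord (0.05 ± 0.07) and nerve (-0.02 ± 0.07). In cerebellum 7 of the 8 enzymes were above 0, as were 49.9% of all probe sets, and the median of the 8 was 0.090 against -0.00024 over all. Sod2 and Prdx6 were the other enzymes with no overlap in cerebellum, at 0.11 ± 0.09 and 0.10 ± 0.08. The 5 microglia and macrophage genes tested in cerebellum were all above 0 and none was called, with a median of 0.74. Summed markers did not overlap in cerebellum for microglia and macrophages (1973 and 1999 with acrylamide against 1272 and 1192 with saline), astrocytes (40287 and 40368 against 38054 and 36319.7) and fibroblasts (2536 and 2544 against 2525 and 1685), nor for the dim sum of skeletal muscle markers (266 and 272 against 316 and 277). Of the 5 astrocyte genes tested there, 3 were above 0 and 2 below, with a median of 0.024, and none was called. The 4 fibroblast genes were all above 0, with a median of 0.28, and none was called. The part of the cell types named here was not tested.

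In the nerve Sod2 averaged 1119 ± 35.4 with acrylamide and 991 ± 6.18 with saline (0.17 ± 0.09, unadjusted p = 0.0795, adjusted p = 0.97), with no overlap. Gpx4 averaged 7317 ± 389 with acrylamide and 8164 ± 784 with saline (-0.16 ± 0.08, unadjusted p = 0.0756, adjusted p = 0.97), and its treated arrays lay below its saline arrays. Over 22 alternatives the adjusted p ran from 0.505 to 1 for Sod2 and from 0.213 to 1 for Gpx4. Without both nerve arrays numbered 1, which carried cerebellar transcript, Sod2 was at 0.21 (adjusted p = 0.419) and Gpx4 at -0.20 (adjusted p = 0.26). That fit, with 1 nerve array a side, called 381 of all probe sets against 1 with all arrays, and the count was 35 without nerve saline replicate 1, 15 without nerve saline replicate 2 and 0 without nerve acrylamide replicate 2. None of the 8 enzymes was among them in any of these fits.

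Precision varied among the enzymes. In cord the interval of Gpx1 ran from -0.39 to 0.39, so a change of 1.31-fold lay just within it, while that of Sod2 ran from -0.20 to 0.20 and that of Prdx2 from -0.089 to 0.22. Prdx2 was higher without overlap in cord (0.06 ± 0.07) and Prdx5 lower without overlap (-0.055 ± 0.07). Each of the remaining differences in nerve and cord lay between -0.08 and 0.15 with overlapping groups. The value of Gpx1 in nerve, 0.15 ± 0.17, rested on single arrays: it was 0.53 (adjusted p = 0.141) without both nerve arrays numbered 1 and -0.0076 (adjusted p = 0.996) without the arrays with muscle transcript, against an adjusted p of 0.392 to 1 over the other 22 alternatives.

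Among related genes, acrylamide led to 0 calls in each of the 5 lists in every tissue. At an unadjusted p under 0.05, the thioredoxin and glutaredoxin list had 1 higher and 3 lower of 17 in nerve, the largest tally of any list in nerve, cord or cerebellum, against 5.1% of all probe sets in either direction. Srxn1, the sulfiredoxin that restores overoxidised peroxiredoxins, stood at 0.40 ± 0.15 in nerve (unadjusted p = 0.0254, adjusted p = 0.946) and 0.35 ± 0.15 in cord (unadjusted p = 0.0454, adjusted p = 1). Cth, which makes cysteine for glutathione, was at 0.81 ± 0.22 in nerve (unadjusted p = 0.00553, adjusted p = 0.892), and Me1, a source of NADPH, at 0.26 ± 0.07 in cord (unadjusted p = 0.0032, adjusted p = 1). Cbs, which starts the route from homocysteine to cysteine, was at 0.75 ± 0.29 and Secisbp2l at -0.31 ± 0.13 in cord (unadjusted p = 0.0276 and 0.0367, adjusted p = 1 for each). Sesn1, a sestrin, was at -0.33 ± 0.10 in nerve (unadjusted p = 0.0097, adjusted p = 0.909). Glrx2 and the methionine sulfoxide reductase Msrb1 were at -0.19 ± 0.07 and -0.17 ± 0.07 there (unadjusted p = 0.0337 and 0.0449, adjusted p = 0.97 for each). In cerebellum Txnip was at 0.22 ± 0.08, the polyamine oxidase Paox at 0.40 ± 0.14 and the aldehyde oxidase Aox1 at 0.54 ± 0.20 (unadjusted p = 0.0276, 0.0177 and 0.0225, adjusted p = 1 for each). These 11 genes are all those of the 5 lists at an unadjusted p under 0.05 in a tissue. The other dismutases and peroxidases gave 0 genes at an unadjusted p under 0.05 in nerve, cord and cerebellum.

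Over the 6 group means, the tissue patterns of Cat and Gpx1 correlated at r = 0.987, those of Sod1 and Prdx6 at 0.993, and those of Prdx2 and Prdx5 at 0.96, whereas Cat and Prdx2 stood at -0.26. Of 9102 genes tested in all 3 tissues, those nearest in pattern were Hsd17b4 (0.9985), Macir and Dynlt3 for Cat, Apod (0.9997), Plbd2 and Sulf2 for Gpx1, and Arl3 (0.9964), Hcfc1r1 and Slc48a1 for Sod1. Pfdn2 (0.9971), Nans and Prtfdc1 were nearest to Sod2, Ube3c (0.9962), Rhbdd2 and Vamp7 to Gpx4, and Tpgs2 (0.9993), Cct3 and Sdf2 to Prdx6. Prdx2 was nearest to Pitpna (0.9992), Tufm and Ero1a, and Prdx5 to Zfp612 (0.9978), Ndufa12 and Cox6b1. With 6 means that share 3 tissues, such values describe likeness and carry no test.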

How the data were processed

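RNA of pooled rat tissue was measured on 12 1-colour Affymetrix arrays with biotin-labelled cRNA, per the labels' protocols. Each probe set has 1 deposited intensity per array, on a linear scale. Per the submitters' processing notes, the authors used GCOS 1.1, with an algorithm and scaling target not given in the sources used here. With 2% trimmed at each end, array means lay between 500.124 and 500.151.

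Groups and replicate numbers came from the labels. Genes were named through the platform's annotation: 20826 probe sets had 1 symbol, 436 several and 9780 none, 20758 matched RefSeq by gene ID, and 0 symbols changed. After leaving out 57 control probe sets, log2(signal + 16) was fitted with limma 3.58.1 in R 4.3.3 (6 group means, eBayes with a trend). A probe set was tested in a tissue where its mean over 4 arrays exceeded the 40th percentile of all such means, a signal of 110. A contrast between tissues needed this in at least 1 of them, and the average and the F test in all 3. In total, 21347 entered the fit. Benjamini-Hochberg adjustment ran over all probe sets tested in a contrast, two-sided, at 0.05. The fit was tested on simulated data. The number of arrays limits the precision. Levels are not compared between probe sets.

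The enzymes and the companion lists were chosen with earlier results of these data known. Every probe set of a listed gene is given, a gene is represented by its brightest one, up to 4 genes of a companion list are named by smallest p, and 3 genes of nearest pattern are named per enzyme. Alternatives changed the scaling, pseudocount, filter, trend, block, spread and arrays. Prdx1 was not analysed as a gene, because its probe set carries several symbols.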

Additional observations from a re-analysis of the deposited data

How the results depend on the processing

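Counts of the 8 enzymes called by limma stayed at 0 for acrylamide in every tissue, for the average and in the F test under every alternative run. Between tissues, leaving out each array in turn gave 8 for cord minus cerebellum, 6 for nerve minus cord and 7 to 8 for nerve minus cerebellum. A minimum of 1.5-fold gave 4, 3 and 2, with 4640, 5872 and 8849 of all probe sets called against 13677, 14243 and 16300. Of 193 counts, 190 stayed within 1.5 times or at 0, and the 3 that moved were those with the minimum of 1.5-fold. The 190 include all acrylamide counts, which were 0 where few probe sets on the whole array were called, so their staying at 0 says little about stability.

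Of 1199 values for single enzymes, 1137 kept their direction and their side of the threshold, 16 lost a call, 4 gained one and 42 turned direction, all 42 in differences that were not called. Quantile normalization turned Prdx2 in cerebellum to 1e-04, Sod2 in cord to -0.003, Sod1 in nerve to 0.0117, and, for nerve minus cord, Cat to -0.0074 and Gpx1 to -0.0468; Gpx4 in nerve minus cerebellum became -0.0819. Median centring turned Prdx6 in cord to 0.0067 and Cat in nerve to -0.0294. Saline arrays alone gave Gpx1 -0.0534 in nerve minus cord. Without both nerve arrays numbered 1, a choice made after seeing the data, Prdx5 in nerve was 0.0124, Prdx6 in nerve 0.0694 and Gpx1 in nerve minus cord -0.017. Without the 2 arrays with muscle transcript, also chosen after seeing the data, Sod2 in cord was -0.0258, Gpx1 in cord -0.1638, Sod1 in nerve 0.0197, Cat in nerve -0.0238, Gpx1 in nerve -0.0076 and Gpx1 in nerve minus cord -0.1401. The cause of these turns was not tested.

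As each array was left out, the turned differences of acrylamide minus saline ranged, in cerebellum, from -0.0693 to 0.1452 (Gpx1), -0.0155 to 0.0535 (Gpx4) and -0.0382 to 0.0232 (Prdx2). In cord they ranged from -0.0105 to 0.1012 (Sod1), -0.0959 to 0.1015 (Sod2), -0.1638 to 0.1659 (Gpx1), -0.0073 to 0.0845 (Gpx4) and -0.0619 to 0.0316 (Prdx6). In nerve they ranged from -0.069 to 0.0197 (Sod1), -0.0238 to 0.0712 (Cat), -0.0798 to 0.3718 (Gpx1), -0.1303 to 0.0243 (Prdx2) and -0.1193 to 0.0394 (Prdx6). For nerve minus cord, Cat ranged from -0.0028 to 0.0997 and Gpx1 from -0.0938 to 0.132. A lone array was assumed to vary like the other groups.

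Calls over all probe sets for acrylamide were few and moved more. In nerve 1 became 2 under quantile normalization, a pseudocount of 64 or no filter, and 0 with the nerve alone or without the arrays with muscle transcript; leaving out each array in turn gave 0 to 35. In cerebellum 0 became 1 without cerebellum saline replicate 2, and 2 without cerebellum acrylamide replicate 1, with the cerebellum alone or without both nerve arrays numbered 1; in cord 0 became 1 without cord acrylamide replicate 2. The average had 2, and 0 to 35 as each array was left out, 4 under quantile normalization, 1 with the 60th percentile filter or no trend, and 0 without the arrays with muscle transcript. Without both nerve arrays numbered 1, nerve had 381, the average 197 and the F test 40, against 0 for the F test with all arrays; it had 1 without nerve saline replicate 2.

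Replicate numbers are shared between groups, but samples of 1 number deviated together in nerve (r = 0.427) and not in cerebellum (0.058) or cord (-0.068), so the numbers were not taken as pairs. Across tissues of 1 treatment the same correlation ran from 0.079 to 0.227. With the number as a random block over tissues (correlation 0.125), no enzyme gained or lost a call and the counts were 0 for acrylamide and 8, 6 and 7 between tissues. With the replicate number as a block, the enzymes called stayed at 0 for acrylamide and at 8, 6 and 7 between tissues; over all probe sets the average had 6 and nerve 0. With 2 arrays a group, the unadjusted 95% interval for Gpx1 in cord reached from -0.39 to 0.39. It is not a limit of detection for calls at an adjusted p under 0.05. Cat in cord, with an interval from 0.11 to 0.57, was not called either, so changes beyond the Gpx1 interval can also go uncalled.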

Other observations

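The probe set annotated to both Prdx1 and Prdx1l1 (1367613_at) belongs to no count above, because its signal cannot be split between those symbols, and it is given here after its values were seen. It read 6542 and 6757 in acrylamide nerve and 6546 and 6825 in saline nerve, 7533 and 7999 in acrylamide cord and 6663 and 6960.4 in saline cord, and 3481 and 3329 in acrylamide cerebellum and 2890.4 and 2811.5 in saline cerebellum. Acrylamide and saline arrays did not overlap in cord or cerebellum, and they overlapped in nerve. Acrylamide minus saline was 0.25 ± 0.06 in cerebellum (unadjusted p = 0.0027), 0.19 ± 0.06 in cord (unadjusted p = 0.0144) and -0.0077 ± 0.06 in nerve, with adjusted p = 1, 1 and 0.999 by limma. The average over the tissues was 0.15 ± 0.04 (unadjusted p = 0.00292, adjusted p = 0.512), and the test of a difference between tissues gave an unadjusted p of 0.0383 (adjusted p = 1). Between tissues it was 2.33-fold higher in cord than in cerebellum (1.22 ± 0.04, adjusted p = 9.63e-08) and 2.13-fold higher in nerve than in cerebellum (1.09 ± 0.04, adjusted p = 3.9e-08). It was 1.09-fold lower in nerve than in cord (-0.12 ± 0.04, adjusted p = 0.0295), with overlapping arrays.

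Gpx2, the peroxidase best known from the gut lining, read from 5.91 to 59.7 on the cerebellar arrays, under the filter on low signals there. It read 2284 and 2906 in acrylamide nerve and 2620 and 3854 in saline nerve, and 687 and 901.3 in acrylamide cord and 934 and 978.5 in saline cord. Every nerve array exceeded every cord array (1.70 ± 0.38, adjusted p = 0.00297).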
